A study of Mus musculus with 8 samples.

Results

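The miRNAs described here carry a miRBase number of 1000 or above. They were found on mouse miRNA arrays hybridised with RNA of embryonic footpad skin, the tissue in which the sweat glands of the mouse form. Members were chosen by name and by the scanner’s detection calls on these arrays. A miRNA was included if its name was mmu-miR-N with N of at least 1000 and if the scanner marked it as detected on both arrays of at least 1 of the 4 groups. Of 1881 mouse miRNAs on the array, 1062 had such a number and 131 met the rule, which is 29.2% of the 448 miRNAs that passed the same detection rule and were tested. The remaining 317 tested miRNAs had lower numbers or were let-7. The groups were wild-type embryos at E16.5 (embryonic day), Dicer conditional knockout (cKO) embryos at E16.5, and the same genotypes at E17.5, with 2 arrays each. All were on a C57BL6 background. Each array held labelled RNA from the pooled footpad skin of 3 to 5 embryos, so that a p-value measures the spread between such pools. Neither the cells in which Dicer was deleted nor the Cre driver is given in the labels, and precursor hairpins were not told apart from mature miRNAs.

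miRBase numbers are given in order of submission, so that numbers above 1000 mark miRNAs annotated after the first rounds of cloning, many of them from deep sequencing of small RNA. The group is mixed. It holds mirtrons, whose hairpins are spliced introns that bypass Drosha but are still cut by Dicer, conventional hairpins, and entries whose sequences overlap repeats or other structured RNA. Dicer cuts the hairpin to give a short duplex, of which 1 strand, called 5p or 3p after the arm it came from, usually enters an Argonaute protein, while bases 2 to 8 of the strand, the seed, pair with target mRNAs.

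Mature sequences of RefSeq (build GRCm38.p6) were matched to 113 of the 131 members. The first set below holds the 4 brightest members, shown because they carried most of the signal, with the seed in capitals.
miR-6366: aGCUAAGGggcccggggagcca
miR-3963: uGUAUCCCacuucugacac
miR-3968: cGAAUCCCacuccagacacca
miR-5100: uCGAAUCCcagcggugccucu

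The next set holds members with the largest changes, again with the seed in capitals. They share no seed with each other.
miR-6997-5p: uAACAGGCuggagaggugcaga
miR-3063-3p: uGAGGAAUccugaucucucgcc
miR-7661-3p: uUGACUCCcaguuucucucugc
miR-1839-5p: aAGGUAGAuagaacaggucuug

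A further set holds 4 members that have the stretch GAGAUGGCU in common, in capitals here. No other of the 1608 mouse miRNAs on the array with a RefSeq sequence contains it (4 in all, 0.249%). B2 repeats, short interspersed elements of the mouse genome, carry a like stretch near their start.
miR-3473a: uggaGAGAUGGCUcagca
miR-3473b: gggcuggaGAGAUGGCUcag
miR-3473e: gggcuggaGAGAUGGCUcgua
miR-5128: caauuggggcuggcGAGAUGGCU

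The last set shows G-rich members from among the 8 brightest, with the seed in capitals.
miR-5126: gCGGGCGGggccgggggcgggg
miR-8110: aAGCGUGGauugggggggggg
miR-1224-5p: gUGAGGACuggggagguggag

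Few seeds were shared. miR-3473b and miR-3473e had the seed GGCUGGA, miR-6965-5p and miR-7047-5p had GAGGGAG, and miR-3547-5p and miR-6368 had UGGGAAG; no other member shared its seed with any tested miRNA that has a RefSeq sequence. The letters AUCCCA occurred in 3 members, which were the 3 bright miRNAs miR-3963, miR-3968 and miR-5100, and in 7 of the 1608 array miRNAs with a sequence (0.435%). miR-3968 and miR-5100 also had the longer AAUCCCA, which was found in 3 of the 1608 (0.187%). These motifs were chosen after the levels were seen and were searched on the miRNA strand only.

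Levels are given as log2 of the spot intensity after scaling of each array to the 75th percentile of 474 probes that every array detected, so that 0 is the level of that percentile. Values under a floor of −4.24 were raised to it. Between 344 and 458 miRNAs were detected per array, no spot was saturated (0 spots), and precision is limited by the 2 arrays per group. The 8 arrays were on a single slide with each group in a slide column of its own, so that column and group cannot be told apart. Replicate 1 of every group lay in row 2 and replicate 2 in row 1, so that a block on the replicate number is also a block on the row. As a check of tissue and genotype, all 7 skin epithelium markers (the miR-200 family, miR-203-3p and miR-205-5p) were detected on every array, and their summed linear level was 26.3 to 31.2 on the wild-type arrays and 2.58 to 4.01 on the cKO arrays. All 7 fell in cKO, with a median log2 change of −3.12 over both stages, and did so under each of 6 scalings of the arrays. The summed level of the 8 dermal mesenchyme markers was 48.7 to 55.6 in wild type and 63.9 to 69.6 in cKO, and that of the 5 skeletal muscle markers 8.50 to 9.55 and 9.98 to 12.1. With the main scaling 7 of the 8 and 5 of the 5 rose in cKO, but without scaling 0 of either list passed by limma (medians 0.05 and 0.02), and with control probes the medians were −0.04 and −0.07. The part of these shifts in the members' values was not tested, and fewer cells of a type and less RNA per cell cannot be told apart in whole skin.

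The rule had 2 thresholds. By number, the lowest member was miR-1187, with a mean level of −1.45, and the nearest tested miRNAs below 1000 were miR-877-3p (−4.13) and miR-877-5p (−4.24). By detection, 89 members were detected on both arrays of all 4 groups, that is on all 8 arrays, 6 on both arrays of 3 groups, 22 of 2 groups and 14 of 1 group. Of the last 14, miR-3474 read −4.02 on a cKO array at E16.5 and miR-7680-3p read −4.15 on a cKO array at E17.5, and otherwise they lay at the floor on every array. Another 12 miRNAs numbered 1000 or above were detected on at least 1 array without meeting the rule. miR-1306-3p and miR-7235-5p, each detected on 4 arrays, and miR-1193-3p, detected on 3, were at the floor throughout.

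Most members were dim. Their median level was −3.44, against −2.46 in the other 317 tested miRNAs, and 12 of 131 had a mean level above 0, against 59 of 317. At least 1 probe was well above background on all 8 arrays for 66 members, on 1 or more arrays for 119, and on none for 12. The floor held 17 members on all 8 arrays, so that no change could be seen in them, while 81 were above it on every array. Few of the numbered entries were seen at all: the 131 members are 12.3% of the 1062 on the array, whereas 38.7% of the 819 other mouse miRNAs were tested.

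A few members nevertheless gave the brightest miRNA signals on the arrays. miR-6366 had the highest signal on all 8 arrays and miR-3963 the next highest, and miR-3968 and miR-5100 took the following 2 places on each array. miR-6366 alone made up 42.3% to 47.6% of the summed miRNA signal of an array and miR-3963 another 22.6% to 24.9%, and all 131 members together 77.4% to 84.4%. Brightness depends on the probe as well as on copy number, so that these shares describe signal and not molecules. miR-6366 read 9.72 and 9.71 in cKO against 9.31 and 9.55 in wild type at E16.5, and 9.39 and 9.47 in cKO against 9.06 and 9.05 in wild type at E17.5. miR-3963 read 8.82 and 8.74 in cKO against 8.38 and 8.63 in wild type at E16.5, and 8.55 and 8.62 against 8.18 and 8.14 at E17.5. At each stage both cKO arrays were above both wild-type arrays for both miRNAs. The share of all tested miRNAs that separated in this way was not counted, here or for the members below.

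**Figure D1:**
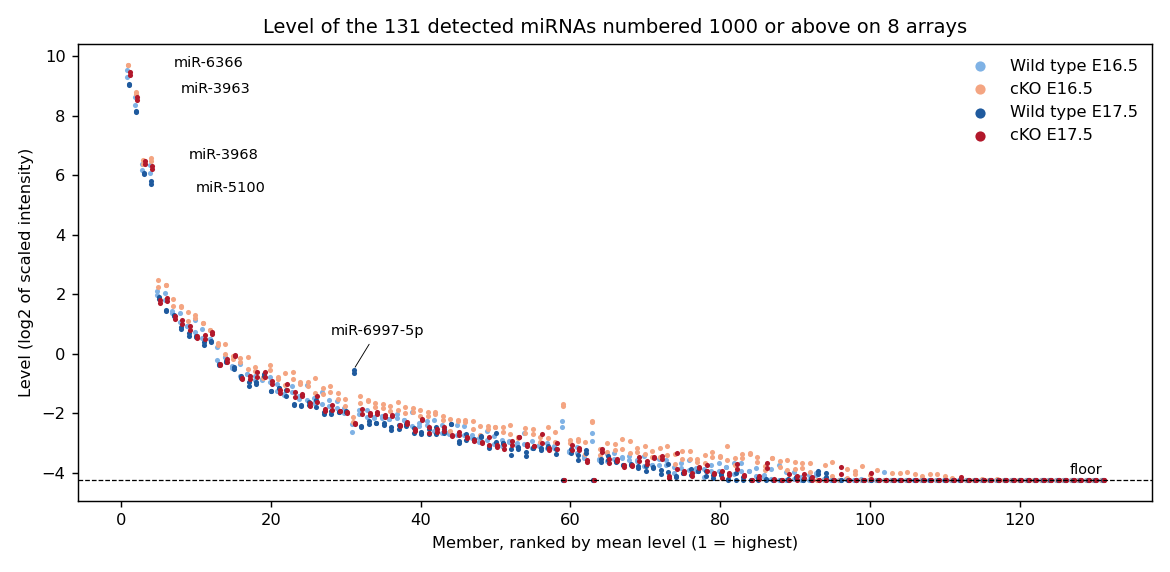
Level (log2 of scaled intensity) of each of the 131 members on each of 8 arrays, with members ranked by mean level along the horizontal axis, colours for the 4 groups and a dashed line at the floor of −4.24. The 4 brightest stand apart from the rest, 17 lie at the floor on all arrays, and miR-6997-5p is higher on the wild-type E17.5 arrays (−0.55 and −0.64) than on the others.

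miR-3968 and miR-5100 formed the next step. miR-3968 read 6.52 and 6.39 in cKO against 6.19 and 6.37 in wild type at E16.5, and 6.37 and 6.50 against 6.05 and 6.09 at E17.5. miR-5100 read 6.57 and 6.48 against 6.09 and 6.35, and 6.23 and 6.32 against 5.81 and 5.72. The genotypes did not overlap within a stage in either miRNA. The other 4 of the 8 brightest were far dimmer, with miR-1224-5p, a mirtron, at 1.71 to 2.47 over the 8 arrays, miR-5126 at 1.43 to 2.33, miR-8117 at 1.16 to 1.84 and miR-8110 at 0.85 to 1.60. The miRNAs with levels most like those of miR-6366 over the 8 arrays were miR-5100 (Pearson r = 0.989), miR-5126 (r = 0.985) and miR-712-5p (r = 0.985). This is a description of 8 arrays that share a scaling.

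The members were G-rich. The median GC content of their mature sequences was 62.5% (quartiles 54.5% and 68.2%, 113 sequences) and the median G content 45.0%. In the 812 sequences numbered 1000 or above that were not members these medians were 54.5% and 27.3%, and in the 270 tested sequences with lower numbers 45.5% and 23.8%. A run of 4 G was present in 39 of 113 members (34.5%), in 11.7% of the other late-numbered sequences and in 5.93% of the lower-numbered tested ones. Arms were unequal, with 57 names ending in 5p, 28 in 3p and 46 without an arm. RefSeq genes of the same build spanned 97 of the 113 members placed on the genome, on either strand, and 86 of these lay in protein-coding genes. miR-6997-5p lies at chr2:29995955-29995976 (plus strand) within Sptan1, which encodes an alpha spectrin, miR-3063-3p at chr11:95963304-95963325 (minus strand) within Igf2bp1, miR-7661-3p at chr6:108489782-108489803 (plus strand) within Itpr1, and miR-1839-5p at chr7:81529919-81529940 (plus strand) within the lncRNA gene 2900076A07Rik. No gene spanned miR-6366 (chr16:18165093-18165114, minus strand) or miR-3963 (chr3:151023839-151023857, minus strand).

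Dicer cKO was compared with wild type over both stages to ask whether these miRNAs fall when Dicer is lost. Of the members, 43 passed in either direction, against 48% of all 448 tested miRNAs. Only miR-6997-5p and miR-1839-5p fell in the 4 cKO arrays against the 4 wild-type arrays (limma, Benjamini-Hochberg adjusted p at or under 0.05), which is 1.53% of the 131 members, against 12.5% of all tested. Another 41 members rose, 31.3% against 35.5% of all tested, and 88 did not pass. No member that passed changed as much as 2-fold: rises ran from 0.13 to 0.46 on the log2 scale, with a median of 0.31. The median change was 0.18 over the members and 0.12 over all tested miRNAs.

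Which miRNAs could pass depended on detection. Among the 89 members detected on all 8 arrays 38 rose (42.7%) and 1 fell (1.12%), with a median of 0.24. Of the 235 other tested miRNAs detected on all 8 arrays 108 rose (46.0%) and 48 fell (20.4%), with a median of 0.16, so that the share of risers was near that of the members. Among the 42 members detected on fewer arrays, many of them at the floor, 3 rose and 1 fell.

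The rises depended on how the arrays were scaled. The count of rising members was 41 with the 75th percentile, 27 with the median of the same probes and 37 with quantile scaling, but 0 without scaling, 1 with the 75th percentile of all probes and 1 with control probes. The count of falling members was 2, 2, 4, 5, 1 and 17 in that order. The median of all tested miRNAs moved from 0.12 to −0.05 without scaling and to −0.11 with control probes, which is a shift of the reference and not of single miRNAs. Under all 6 scalings only miR-6997-5p passed with 1 direction, and no member rose under all 6. Single arrays mattered too: 64 members rose without cKO E16.5 replicate 2, 26 without cKO E17.5 replicate 2, 25 without wild-type E17.5 replicate 1 and 23 without wild-type E17.5 replicate 2.

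**Figure D2:**
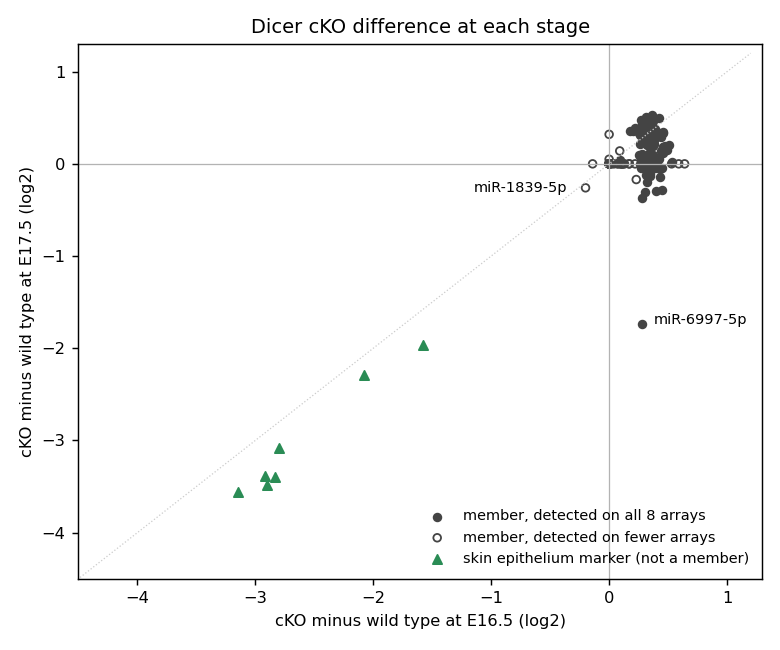
Log2 difference of cKO from wild type at E16.5 (horizontal) and at E17.5 (vertical), with 2 arrays per group, for the 131 members (filled points, 89 detected on all 8 arrays; open points, 42 detected on fewer) and for the 7 skin epithelium markers (triangles); the dotted line marks equal differences. The markers lie far below 0 at both stages, while the members cluster near 0, and miR-6997-5p stands alone at 0.28 and −1.74.

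The brightest members were among those that rose with the main scaling. miR-6366 was higher in cKO by 0.33 ± 0.0858 (log2 and its SE) over both stages (limma adjusted p = 0.0311), but this call held in only 8 of 22 alternative settings. The value was −0.06 with control probes, 0.02 without scaling and 0.05 with all-probe scaling, and the call was lost with median scaling (adjusted p = 0.0848), the scanner gene signal (0.144), the mean of all probes (0.0689), the replicate block (0.0594) and without any 1 array of cKO or of wild type at E17.5 (0.121 to 0.171). miR-3963 was higher by 0.35 ± 0.0760 (limma adjusted p = 0.0173), a call that held in 12 of 22 settings and was lost without any 1 array of cKO or of wild type at E17.5. Its change was −0.04 with control probes and 0.05 without scaling. miR-5100 was higher by 0.41 ± 0.0708 (limma adjusted p = 0.00903). The change was 0.10 without scaling (limma adjusted p = 0.473), 0.13 with all-probe scaling (limma adjusted p = 0.625) and 0.02 with control probes (limma adjusted p = 0.965), and the call held in the other 19 of 22 settings. miR-3968 was higher by 0.27 ± 0.0622 (limma adjusted p = 0.0213), but changed by −0.03 without scaling, −0.07 with quantile scaling, −0.01 with all-probe scaling and −0.12 with control probes, and the call held in 13 of 22 settings, not without cKO E16.5 replicate 1, cKO E17.5 replicate 2 or either wild-type E17.5 array.

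Among the G-rich bright members, miR-5126 rose by 0.38 ± 0.0593 (limma adjusted p = 0.00601) and miR-8110 by 0.28 ± 0.0794 (limma adjusted p = 0.0415), where control-probe scaling gave −0.01 and −0.11 and the calls held in 19 and 11 of 22 settings. The call of miR-8110 was lost without any 1 array of cKO or of wild type at E17.5. miR-1224-5p differed by 0.09 and miR-8117 by 0.13, and neither passed. miR-5126 read 2.33 and 2.33 in cKO against 1.82 and 2.05 in wild type at E16.5, and 1.78 and 1.88 against 1.47 and 1.43 at E17.5. Its cKO arrays were above the wild-type arrays of the same stage.

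The largest rises were also of this size. They were picked by size among the rises that passed, so that a separation of the genotypes in them is largely given by that choice. miR-5128, 1 of the 4 miRNAs with the B2-like stretch, read −1.40 and −1.65 in cKO against −2.01 and −1.88 in wild type at E16.5, and −2.02 and −1.84 against −2.41 and −2.45 at E17.5. Its rise was 0.46 ± 0.0805 (limma adjusted p = 0.00907). The genotypes were separate within each stage, but cKO at E17.5 overlapped wild type at E16.5. miR-6412 (0.42), miR-3102-5p (0.41), miR-6402 (0.40), miR-7118-5p (0.40), miR-1906 (0.39), miR-3068-3p (0.38) and miR-6378 (0.37) followed. With control probes the change of miR-6378 was −0.02 and those of the other 6 and miR-5128 lay between 0.00 and 0.07, and none of these rises passed under all 6 scalings.

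miR-3102-5p had the smallest adjusted p of these. It read −1.01 and −0.96 in cKO against −1.50 and −1.40 in wild type at E16.5, and −1.42 and −1.36 against −1.76 and −1.73 at E17.5, for a rise of 0.41 ± 0.0316 (limma adjusted p = 0.000647). Replicates lay closer to each other than the genotypes did. miR-6412 read −1.90 and −2.09 in cKO against −2.43 and −2.31 in wild type at E16.5, and −2.21 and −2.18 against −2.64 and −2.68 at E17.5. miR-6378 read −1.65 and −1.78 against −2.15 and −2.11, and −2.03 and −1.94 against −2.32 and −2.31. In both the wild-type arrays were lower at each stage.

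miR-1906, encoded on chromosome 12 within Meg3 and again on chromosome X, read −1.76 and −1.91 in cKO against −2.19 and −2.19 in wild type at E16.5, and −2.08 and −2.07 against −2.45 and −2.55 at E17.5. miR-7118-5p read −0.61 and −0.83 against −1.28 and −1.09, and −1.45 and −1.29 against −1.69 and −1.71. miR-3068-3p and miR-6402 lay close to the floor, and with the mean of all probes their change was 0.00 over both stages and at E17.5 (limma adjusted p = 1). miR-3068-3p read −3.77 and −3.89 in cKO against −4.06 and −4.13 in wild type at E16.5, and −3.82 and −3.67 against −4.22 and −4.24 at E17.5, while miR-6402 read −3.18 and −3.47 against −3.74 and −3.54, and −3.53 and −3.44 against −3.90 and −4.04. At each stage both cKO arrays were the higher ones in these 4 miRNAs, which their choice as the largest rises that passed largely gives.

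miR-6997-5p was the exception among the members. It read −2.62 and −2.35 in wild type against −2.12 and −2.30 in cKO at E16.5, and −2.35 and −2.32 in cKO at E17.5, but −0.55 and −0.64 in wild type at E17.5. The wild-type E17.5 arrays stood above all 6 others. All 3 of its probes on the array gave the same picture, the other pair reading −0.61 and −0.69, and −0.75 and −0.86, in wild type at E17.5 and −2.22 to −2.75 elsewhere, and the miRNA was well above background on all 8 arrays.

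At E17.5 the cKO minus wild-type difference of miR-6997-5p was −1.74 ± 0.114 (log2 and its SE, limma adjusted p = 0.000749), while the difference at E16.5 was 0.28 ± 0.114 (limma adjusted p = 0.114). The effect of cKO differed between the stages by −2.02 ± 0.161 (limma adjusted p = 0.0129). From E16.5 to E17.5 it rose in wild type by 1.90 ± 0.114 (limma adjusted p = 0.00211) and changed by −0.13 ± 0.114 in cKO (limma adjusted p = 0.461). Its fall over both stages and its fall at E17.5 passed in every alternative setting run. Its rise in wild type missed the threshold when only the 4 wild-type arrays were fitted (limma adjusted p = 0.0788). The difference between stages missed the threshold with all-probe scaling (−2.13, limma adjusted p = 0.0886), without wild-type E17.5 replicate 1 (limma adjusted p = 0.0619) and without wild-type E17.5 replicate 2 (limma adjusted p = 0.0785).

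Of all tested miRNAs, the one with levels most like those of miR-6997-5p over the 8 arrays was miR-31-3p, from a hairpin known from keratinocytes (Pearson r = 0.916), which read −4.05 and −3.88 in wild type at E17.5 and lay at the floor on the other 6 arrays. The next were miR-467f (r = 0.719) and miR-23a-3p (r = 0.697). miR-6997-5p also shares the stretch GGCUGGAGAG (10 bases) with miR-3473b and miR-3473e, which did not follow its pattern: miR-3473b read 0.70 and 0.59 in wild type at E17.5, the lowest values of its 8 arrays.

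**Figure D3:**
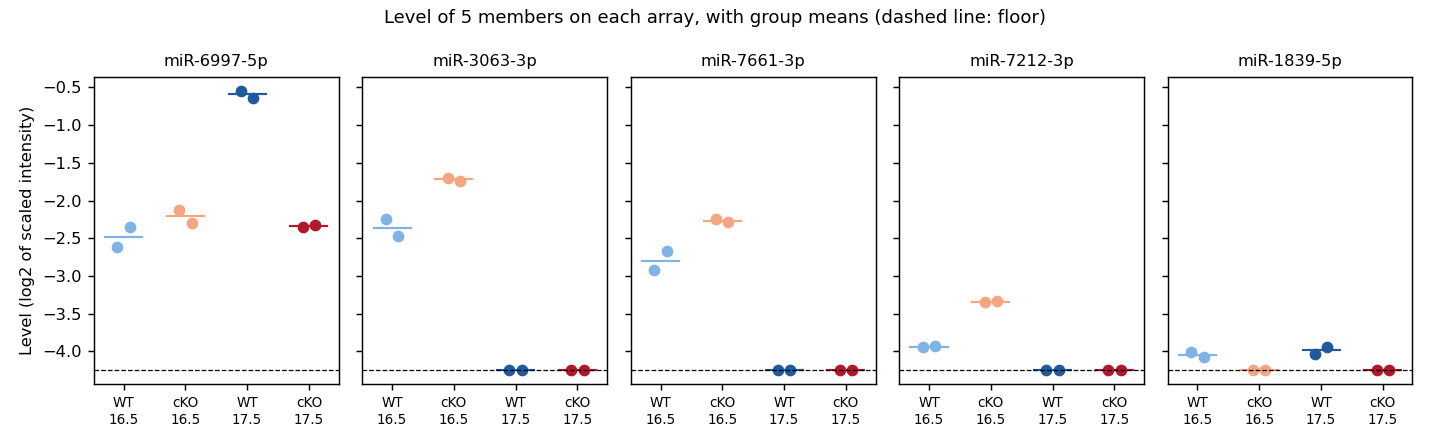
Level (log2 of scaled intensity) of 5 members on each array, by group, with group means as horizontal bars and the floor of −4.24 as a dashed line. miR-6997-5p is high in wild type at E17.5 alone, miR-3063-3p, miR-7661-3p and miR-7212-3p are above the floor at E16.5 in both genotypes and at the floor at E17.5, and miR-1839-5p is at the floor on all 4 cKO arrays. The scanner still detected miR-1839-5p on 1 cKO array at E16.5 and on both at E17.5.

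miR-1839-5p was the other member that fell. It read −4.01 and −4.07 in wild type at E16.5 and −4.03 and −3.94 at E17.5, and was at the floor of −4.24 on all 4 cKO arrays. It was not absent there: the scanner detected it on 1 cKO array at E16.5 and on both at E17.5, 1 of them well above background. The fitted change was −0.23 ± 0.0255 (limma adjusted p = 0.00198), which the floor limits. Both cKO groups lay wholly at the floor, so that the p-value understates the spread between pools. The call rests on 1 of its 3 probes: the other probes were at the floor on all 8 arrays and well above background on none. With the mean of all probes the change was 0.00 (limma adjusted p = 1), with normexp background 0.00 (limma adjusted p = 0.964), and with all-probe scaling −0.39 (limma adjusted p = 0.0759).

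With the main scaling the other arm of the same hairpin went the opposite way. miR-1839-3p read −0.07 and −0.17 in cKO against −0.40 and −0.47 in wild type at E16.5, and −0.05 and −0.08 against −0.44 and −0.50 at E17.5. It was higher in cKO by 0.36 ± 0.0326 (limma adjusted p = 0.0011), with all 3 probes above the wild-type arrays in every cKO array. The probes share the scaling of their array, and without scaling no member passed as a rise over both stages, miR-1839-3p included. Both arms were members for 6 hairpins. In 4 of these 1 arm lay at or near the floor on all arrays, so that its change could not be followed: miR-3102-3p (with miR-3102-5p.2-5p), miR-3620-3p, miR-6984-3p and miR-7047-3p. For miR-1897 both arms were measured, the 3p arm at −2.42 to −1.77 and the 5p arm at −3.18 to −2.42, and their changes over both stages were 0.20 (limma adjusted p = 0.0475) and 0.24 (limma adjusted p = 0.117).

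At the single stages the risers again outnumbered the fallers. At E16.5, 35 members rose and 1, miR-1839-5p, fell, which is 26.7% and 0.763%, against 23.7% and 12.3% of all tested miRNAs (35.9% in either direction). At E17.5, 19 rose and 2, miR-6997-5p and miR-1839-5p, fell, or 14.5% and 1.53%, against 29.2% and 8.71% (37.9% in either direction). The median over the members was 0.31 at E16.5 and 0.01 at E17.5, and over all tested miRNAs 0.12 and 0.06. Of the risers 13 were the same at both stages, 37.1% of those at E16.5 and 68.4% of those at E17.5. The same overlap over all tested miRNAs is not given here, so that it cannot be called particular to the members. The higher counts held only for part of the scalings: none of the members rose at E16.5 without scaling (0) or with all-probe scaling (0), and 2 did with control probes; at E17.5 the counts were 0, 0 and 0, and 44 members fell with control probes.

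Single arrays weighed heavily on these counts. At E16.5 the number of rising members was 61 without cKO E16.5 replicate 2, 13 without cKO E16.5 replicate 1 and 11 without wild-type E16.5 replicate 1. It was 22 without either cKO E17.5 array and 16 without either wild-type E17.5 array, which enter only through the shared spread. At E17.5 it was 12 and 8 without cKO replicate 1 and 2, and 6 and 5 without wild-type replicate 1 and 2. A fit of only the 4 arrays of E16.5 gave 4 rising members. With the slide row as a block 12 members rose at E17.5.

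Of the largest rises at E16.5, 3 were in miRNAs that lay at the floor on all 4 arrays at E17.5. miR-3063-3p was higher in cKO by 0.64 ± 0.0759 (limma adjusted p = 0.00409), miR-7212-3p by 0.59 ± 0.00842 (limma adjusted p = 6.29e-06) and miR-7661-3p by 0.53 ± 0.0826 (limma adjusted p = 0.00984). The E17.5 arrays at the floor enter the shared estimate of the spread with a spread of 0 by construction. In these 3 the SE and p-value thus understate the spread between pools. Next came miR-1934-3p (0.53), miR-7118-5p (0.46) and miR-7045-5p (0.46), with miR-3102-5p and miR-6931-5p at the same rounded value. The first 6 kept a higher value in cKO under all 6 scalings, but without scaling and with all-probe scaling none of the first 3 passed, and with control probes miR-7661-3p did not (0.24, limma adjusted p = 0.0942). At E17.5 the largest rises were those of miR-5100 (0.51), miR-5128 (0.50), miR-3068-3p (0.48), miR-6402 (0.48), miR-6412 (0.46) and miR-3963 (0.43), where control-probe scaling gave −0.01 for miR-6402, −0.03 for miR-6412 and −0.07 for miR-3963.

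The difference of the cKO effect between the stages was tested directly. It passed in 2 members, miR-6997-5p and miR-7212-3p, both negative, or 1.53% against 0.67% of all tested miRNAs in that direction (1.34% in either). In the other direction limma called 0 members, against 0.67% of all tested, and 1 of them had an unadjusted p under 0.05. For miR-7212-3p it was −0.59 ± 0.0119 (limma adjusted p = 6.38e-05). All E17.5 arrays lay at the floor in this miRNA, so that the value repeats the difference at E16.5, and the replicates at E16.5 lay close together. Its SE and p-value therefore understate the spread between pools. The difference was −0.30 without scaling (limma adjusted p = 0.55). Without cKO E16.5 replicate 2 the count of negative differences was 27 in place of 2, and without cKO E16.5 replicate 1, wild-type E16.5 replicate 1 and wild-type E16.5 replicate 2 it was 5, 5 and 6.

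The step from E16.5 to E17.5 was compared within each genotype to ask how the members follow developmental stage. In wild type 5 members fell and 1 rose, which is 3.82% and 0.763%, against 5.58% and 2.68% of all tested miRNAs (8.26% in either direction). The one that rose was miR-6997-5p, and those that fell were miR-3063-3p, miR-7661-3p, miR-5126, miR-7212-3p and miR-3102-5p. In cKO 50 members fell and 0 rose by limma, 38.2% against 14.7% of all tested lower and 10.5% higher (25.2% in either direction), with 1 member higher at an unadjusted p under 0.05, and the median change of the 50 was −0.58. Of these 47 were among the 89 members detected on all 8 arrays. At an unadjusted limma p under 0.05, 32 members fell in wild type and 70 in cKO. The share of all tested miRNAs at that unadjusted threshold is not given here, so that these counts have no background.

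In 4 members, miR-3063-3p, miR-7661-3p, miR-7212-3p and miR-6957-3p, the scanner detected the miRNA on all 4 arrays at E16.5 and on no wild-type array at E17.5. They met the detection rule through the E16.5 groups only. Their place among the members thus depends on the stage where they are high, and their p-values between stages are not independent of the rule. In cKO at E17.5 miR-3063-3p and miR-7661-3p were still detected on 1 of 2 arrays and the other pair on none. miR-6957-3p, named after its values were seen, was the dimmest, at −3.79 and −3.60 in cKO against −4.24 and −3.73 in wild type at E16.5. miR-3063-3p read −2.25 and −2.47 in wild type against −1.70 and −1.74 in cKO at E16.5, and lay at the floor on all 4 arrays at E17.5. No wild-type array at E17.5 held it well above background, so that its fall there was at least 6.04-fold (limma adjusted p = 0.000835). In cKO 1 of 2 arrays at E17.5 was above background, and the fitted change was −2.52 ± 0.0759 (limma adjusted p = 0.000142). A bound sets the dim group at the lowest signal well above background on each array, or at the signal of the probe itself where that is higher, and can exceed the fitted change, which uses the common floor.

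miR-7661-3p read −2.92 and −2.67 in wild type against −2.25 and −2.28 in cKO at E16.5 and was at the floor at E17.5. Its fall was at least 4.48-fold in wild type (limma adjusted p = 0.00207) and at least 5.27-fold in cKO (limma adjusted p = 0.000391). miR-7212-3p read −3.94 and −3.93 in wild type, with 1 of 2 arrays well above background, and −3.35 and −3.33 in cKO at E16.5, and was at the floor at E17.5, a fall of at least 2.03-fold in wild type (limma adjusted p = 0.000266) and at least 2.50-fold in cKO (limma adjusted p = 1.76e-06). E16.5 and E17.5 did not overlap in miR-3063-3p, miR-7661-3p and miR-7212-3p. The second probes of miR-3063-3p and miR-7661-3p followed the first, and that of miR-7212-3p was above the floor on the cKO E16.5 arrays only. The falls of miR-3063-3p and miR-7661-3p passed in both genotypes under all 6 scalings, whereas those of miR-7212-3p did not pass without scaling (−0.17 in wild type, −0.48 in cKO) or with all-probe scaling (−0.27 and −0.63). Where all arrays of a group lie at the floor their spread is 0 by construction, and the p-value understates the spread between pools.

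The other falls in cKO were smaller and followed a common pattern. miR-8105 read −3.11 and −3.40 in cKO at E16.5 and −4.17 and −4.09 at E17.5, a change of −0.88 ± 0.144 (limma adjusted p = 0.0266). miR-7070-5p read −2.85 and −3.20, then −3.80 and −3.75, a change of −0.74 ± 0.117 (limma adjusted p = 0.0266). miR-1934-3p read −3.51 and −3.49, then −4.24 and −4.20, a change of −0.72 ± 0.107 (limma adjusted p = 0.0228). In each the cKO stages did not overlap, and in wild type the changes were −0.19, −0.25 and −0.21 and did not pass. The difference between the genotypes in this step did not pass in any of the 3 either (limma adjusted p = 0.141, 0.172 and 0.141). The calls in cKO held in 15, 16 and 14 of 23 alternative settings. For miR-8105 the change was −0.07 with the mean of all probes (limma adjusted p = 0.34), and the call was lost with the replicate block (limma adjusted p = 0.0506), with only the cKO arrays fitted (limma adjusted p = 0.0743) and without cKO E16.5 replicate 1 or either cKO E17.5 array. The call of miR-7070-5p was lost without any 1 array of E17.5, and that of miR-1934-3p without any 1 array of cKO or of wild type at E17.5. For miR-1934-3p the mean of all probes gave −0.13. Among brighter members miR-1224-5p, the mirtron, changed by −0.59 in cKO (limma adjusted p = 0.0266) and miR-3072-5p, from the imprinted Dlk1-Dio3 miRNA cluster, by −0.58 (limma adjusted p = 0.0272). miR-1906, which has a locus within Meg3 on the same chromosome, changed by −0.24 in cKO and did not pass (limma adjusted p = 0.06).

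These falls depend on the scaling and on single arrays. Their number in cKO was 50 with the main scaling, 47 with median scaling, 43 with quantile scaling, 18 with control probes, and 2 both without scaling and with all-probe scaling. It was 14 without cKO E16.5 replicate 1, 3 and 4 without cKO E17.5 replicate 1 and 2, and 6 without either wild-type E17.5 array, and 15 with the slide row (replicate number) as a block. In wild type 24 members fell without wild-type E16.5 replicate 1, and 39 with normexp background.

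What did not depend on the scaling was the position of the members relative to the other miRNAs. The 89 members detected on all 8 arrays had a median change of −0.44 from E16.5 to E17.5 in cKO, and the 235 other miRNAs detected on all 8 arrays had 0.08. Without scaling the values were −0.01 and 0.52. The gap between the medians was −0.51 with the main scaling and lay between −0.46 and −0.52 under all 6. In wild type it was −0.18, between −0.11 and −0.19 under all 6, and for cKO against wild type it was 0.24 at E16.5 and −0.06 at E17.5. A scaling by 1 factor per array moves both medians together, apart from the floor, so that the gap holds by construction for all but quantile scaling. It did vary with the slide row, which held 1 array of each group: in rows 1 and 2 it was −0.39 and −0.63 between the stages in cKO, −0.28 and −0.09 in wild type, 0.06 and 0.43 for cKO against wild type at E16.5, and −0.03 and −0.10 at E17.5.

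On single arrays the unscaled median log2 intensity of the 89 members was 5.91 and 5.73 in wild type against 5.96 and 5.87 in cKO at E16.5, 6.20 and 6.35 in wild type at E17.5, and 5.92 and 5.87 in cKO at E17.5. The 235 other miRNAs had medians of 7.27 and 6.66 in wild type against 6.70 and 6.60 in cKO at E16.5, 7.51 and 7.52 in wild type at E17.5 and 7.28 and 7.13 in cKO at E17.5. The members thus spanned 5.73 to 6.35 while the others spanned 6.60 to 7.52. Wild-type E16.5 replicate 1 had a gap of −1.36, close to the −1.18 to −1.36 of the E17.5 arrays, and the other 3 arrays of E16.5 had −0.93, −0.74 and −0.73. The wild-type E16.5 replicates, at −1.36 and −0.93, thus lay further apart than the 0.24 between the genotypes at E16.5. They also lay further apart than the −0.18 between the stages in wild type, but less far than the −0.51 in cKO.

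**Figure D4:**
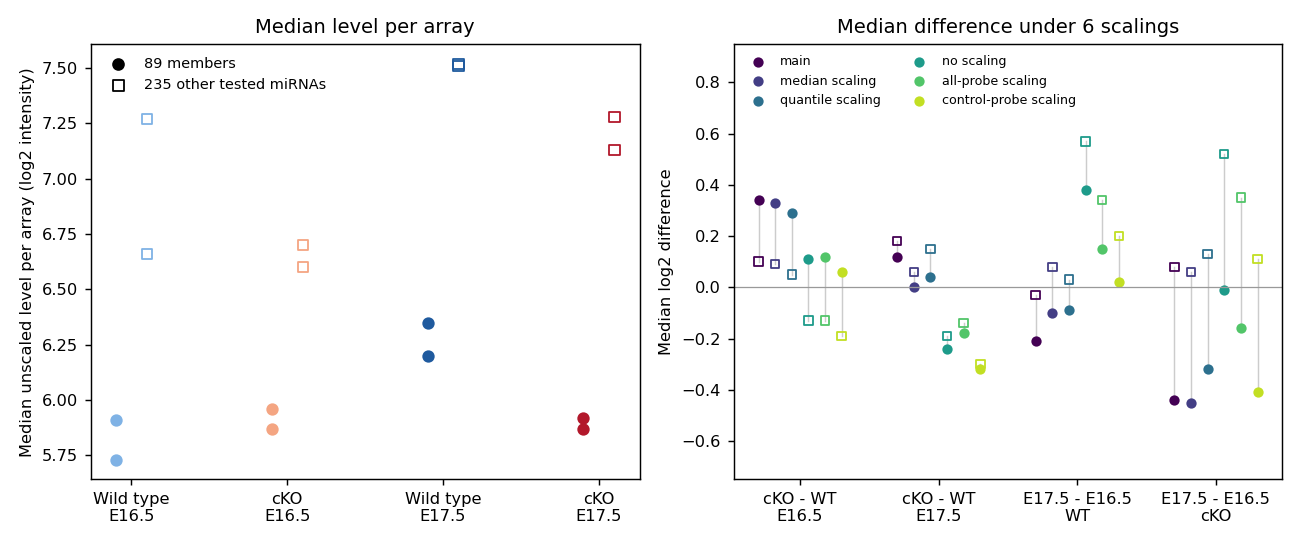
Left, median unscaled log2 intensity per array of 89 members (filled circles) and 235 other tested miRNAs (open squares), all detected on 8 arrays, by group with 2 arrays each. Right, median log2 difference of the same 2 sets in 4 comparisons under 6 scalings (colours; grey lines join the sets); the sign of both medians moves with the scaling, while the gap between them lies between −0.46 and −0.52 for the stages in cKO and is 0.24 with the main scaling for cKO against wild type at E16.5.

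G content differed between the members that fell between the stages in cKO and those that did not pass, and 47 of the 50 that fell were detected on all 8 arrays. Of 45 with a sequence, 23 (51.1%) had a run of 4 G, against 16 of 68 (23.5%) of the members that did not pass, and their median G content was 54.2% against 40.9%. Within the 89 members detected on all 8 arrays, 23 of 43 sequences of those that fell (53.5%) and 11 of 33 of those that did not pass (33.3%) had such a run, and the medians were 54.5% and 40.9%. These are descriptions, with no test. For the members that rose in cKO over both stages the median G content was 45.2%, against 45.5% in those that did not pass. By arm, 26 of 57 members named 5p fell between the stages in cKO, 8 of 28 named 3p and 16 of 46 without an arm, and the medians were −0.40, −0.09 and −0.28. Over both stages the rise in cKO passed in 9 of 57, 10 of 28 and 22 of 46. Of all tested miRNAs 14.7% fell between the stages in cKO and 35.5% rose in cKO over both stages. The 4 brightest members have no arm in the name, and the arms were not matched for detection or level. An effect of the arm was not tested.

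By block of number, the median change in cKO over both stages was 0.24 in the 16 members of the 1000s, 0.22 in the 2 of the 2000s, 0.26 in the 27 of the 3000s, 0.17 in the 12 of the 5000s, 0.16 in the 32 of the 6000s, 0.15 in the 37 of the 7000s and 0.13 in the 5 of the 8000s. There was no member in the 4000s. A run of 4 G was present in 42.4% of the members of the 6000s and 7000s that have a sequence.

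The miRNAs with the B2-like stretch were described as a set because of their common sequence. miR-3473b, the brightest, read 1.42 and 1.12 in cKO against 0.94 and 0.94 in wild type at E16.5, and 0.80 and 0.95 against 0.70 and 0.59 at E17.5. Over both stages miR-3473b differed by 0.28 (limma adjusted p = 0.0435), miR-3473e by 0.35 (limma adjusted p = 0.03), miR-5128 by 0.46 and miR-3473a by 0.30 (limma adjusted p = 0.0728). So 3 of the 4 rose, where 35.5% of all tested miRNAs did, and the genotypes did not overlap within a stage in miR-3473b. Since the 4 share 9 bases, their probes may read some of the same RNA, which was not tested. miR-1187 and miR-3082-5p share GUGUGUGU, found in 7 of 1608 sequences, and differed by 0.32 (limma adjusted p = 0.151) and 0.36 (limma adjusted p = 0.061), so that neither passed.

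The number of members detected per array did not separate the genotypes. The same detection calls chose the members, so that the count and its test are a description and not independent of the rule. It was 124 and 95 on the cKO arrays and 118 and 97 on the wild-type arrays at E16.5, and 123 and 116 against 125 and 124 at E17.5. The mean was 114.5 ± 13.5 (SD, n = 4) in cKO and 116.0 ± 13.0 in wild type (exact two-sided permutation test over 70 arrangements, p = 0.714; within stage over 36 arrangements, p = 0.722; smallest possible p = 0.0286 and 0.0556). Both arrays with the fewest members were replicate 2 of an E16.5 group, in the same slide row, and they also had the fewest miRNAs of any number (344 each).

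Detection in 1 genotype alone was limited to E17.5 and to members at or near the floor. miR-6393 and miR-7680-3p were detected on both cKO arrays at E17.5 and on no other array. miR-3102-3p, miR-5135, miR-6906-5p and miR-6939-5p were detected on both wild-type arrays at E17.5 and nowhere else. All 6 met the detection rule through that group alone, so that the pattern is drawn from the calls that chose them. The same count over all tested miRNAs is not given here. None of these 6 passed in any contrast, and 5 of them lay at the floor on all 8 arrays, so that a difference in level could not be seen in those 5. The other, miR-7680-3p, was well above background on both cKO arrays at E17.5 and on no other array. Its fitted change there was 0.05 (limma adjusted p = 0.349). Its level on cKO E17.5 replicate 2 was also raised to the floor, so that no lower bound on the fold change is given.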

How the data were processed

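Agilent miRNA arrays of 8 footpad skin pools were used, 2 per group. The deposited intensity values are background-subtracted processed signals made by the authors with Agilent Feature Extraction 11.5.1.1, per the file headers. The deposited scanner flags mark detected genes, probes well above background and outlier spots, coded as 0 or 1 per the file headers. Outlier spots (2.84% to 6.02% per array) and control spots were dropped, replicate spots were averaged by probe, and each miRNA took the probe with the brightest mean (4415 probes, 1881 miRNAs). Arrays were scaled to the 75th percentile of 474 probes detected on all 8 arrays, raised to a floor of −4.24 and put on the log2 scale. A single limma fit of 4 group means (limma 3.58.1, R 4.3.3, 4 residual degrees of freedom, median prior 0.691) covered all 448 detected miRNAs and 6 contrasts, with Benjamini-Hochberg adjustment over all 448 and a threshold of 0.05. Files were read with pandas 2.3.3 (Python 3.11.15) and the R package data.table, version 1.17.8, and plots were drawn with matplotlib 3.10.9. The fit was tested on simulated data.

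The deposited value table matched the linear scanner signal within 0.02 on all arrays wherever that signal was above 0 and was an alternative. Other alternatives were 5 scalings, normexp background (offset 50), the scanner's gene signal, the mean of all probes, other filters and floors, no variance trend, a replicate block, fits of only the arrays compared and leaving out each array. Replicate numbers, which are also the slide rows, were not taken as pairing the arrays: deviations of same-numbered arrays correlated at −0.12 in 1 pair of groups and at 0.12 to 0.27 in the other 5.

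The members and lists were chosen with earlier results of these data known. Members named with values were the 8 brightest, up to 10 with the largest fall and rise over both stages, up to 6 each way in each other contrast, all that passed in the difference between stages, those detected in 1 genotype only, those at the edges of the rule, and both arms of a hairpin. Members outside this rule were named after their values were seen: the set with GAGAUGGCU, the pair with GUGUGUGU, miR-3072-5p, miR-6957-3p and miR-6931-5p. Sequences were read from RefSeq tables (GRCm38.p6).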

Additional observations from a re-analysis of the deposited data

Results flagged for a closer look

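The effect of cKO differed between E16.5 and E17.5 in 2 members by limma's interaction test. For miR-6997-5p the difference was −2.02 (limma adjusted p = 0.0129), from 0.28 at E16.5 to −1.74 at E17.5. For miR-7212-3p it was −0.59 (limma adjusted p = 6.38e-05), from 0.59 at E16.5 to 0.00 at E17.5, where all 4 arrays lay at the floor. The p-value of miR-7212-3p thus understates the spread between pools.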

How the results depend on the processing

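Of 45 changes of named members, all 45 kept their direction and call with the deposited value table, a filter on probes well above background, no filter, a lower floor and no variance trend. No change of sign occurred with median scaling, and 36 calls held there. Counts of members that passed moved as follows, and causes were not tested. The shares of all tested miRNAs under the same settings are not set beside them. The counts thus describe the processing and not a trait of the members.

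Without scaling, over both stages 5 fell and 0 rose; at E16.5 0 and 0; at E17.5 13 and 0; between stages 2 fell and 8 rose in wild type, and 2 and 1 in cKO. The median scaling gave 27 rises over both stages, 6 at E17.5, 3 falls in wild type and 1 rise in cKO. Quantile scaling gave 4 falls over both stages, 2 at E16.5, 4 at E17.5, 5 negative and 1 positive stage difference and 4 rises in cKO. All-probe scaling gave 1 fall and 1 rise over both stages, 0 and 0 at E16.5, 1 and 0 at E17.5, 0 negative stage differences, and 2 falls in each genotype. Control probes gave 17 falls and 1 rise over both stages, 2 rises at E16.5, 44 falls and 0 rises at E17.5, 4 negative stage differences, 3 falls and 5 rises in wild type, and 18 falls in cKO. The negative stage differences numbered 3 without scaling.

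Normexp background gave 1 fall over both stages, 0 at E16.5, 1 at E17.5, 1 negative stage difference, 39 falls in wild type and 96 in cKO. The scanner's gene signal gave 5 falls and 26 rises over both stages, 7 and 12 at E17.5, 11 falls and 4 rises in wild type and 1 rise in cKO. The mean of all probes gave 1 fall over both stages, 0 at E16.5, 1 at E17.5 and 4 negative stage differences. The filter on probes well above background gave 10 falls in wild type and 1 rise in cKO, no filter 66 rises at E16.5, 11 falls in wild type and 1 rise in cKO, and the lower floor 1 rise in cKO. Fits of only the arrays compared gave 4 rises at E16.5, 5 falls at E17.5, 0 rises in wild type and 16 falls in cKO.

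Signs turned with control probes over both stages for miR-6366 (−0.06), miR-3963 (−0.04), miR-3968 (−0.12), miR-5126 (−0.01), miR-8110 (−0.11) and miR-6378 (−0.02), and at E17.5 for miR-6402 (−0.01), miR-6412 (−0.03) and miR-3963 (−0.07). Without scaling they turned for miR-3968 (−0.03) and miR-8110 (−0.03) over both stages and, in wild type, for miR-5126 (0.12) and miR-3102-5p (0.31). They also turned for miR-3968 with quantile (−0.07) and all-probe scaling (−0.01), for miR-3102-5p in wild type with all-probe scaling (0.08) and for miR-1839-5p at E16.5 with normexp (0.01).

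Leaving out 1 array at a time gave 2 to 3 falls and 23 to 64 rises over both stages, 0 to 1 and 11 to 61 at E16.5, 2 to 4 and 5 to 18 at E17.5, 1 to 27 negative and 0 to 2 positive stage differences, 3 to 24 falls and 1 to 2 rises in wild type, and 3 to 54 falls and 0 to 2 rises in cKO. The difference in members detected per array ran from −7.83 to 5.0, turning to 5.0, 1.5 and 1.17 without cKO E16.5 replicate 2, wild-type E17.5 replicate 1 and wild-type E17.5 replicate 2. With the replicate block, which is also the slide row, 39 members rose over both stages, 12 rose at E17.5 and 15 fell in cKO. Dim signal limits all but the 66 members that were well above background on all 8 arrays.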
